A study of Mus musculus with 3 samples.

Results

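Metallothioneins and the genes that move zinc across membranes were followed through the cells of mouse dorsal skin in 3 single-cell libraries. The 5 genes, taken by name from the 32285 genes of the deposited tables, were the metallothioneins Mt1 and Mt2, the zinc-sensing transcription factor Mtf1, the zinc exporter Slc30a1 (also called ZnT1) and the zinc importer Slc39a14 (also called ZIP14). All 5 names were present in the tables. Full-thickness dorsal skin came from C57BL/6J mice labelled as female and 8 weeks old, with no genetic change named for any group. The study gives that age for the mice as purchased, before the weeks of irradiation. Control mice (CON) received vehicle and no irradiation. UV mice received vehicle and a mix of UVA (0.60 mW/cm2) with UVB (3.5 mW/cm2) on alternate days over 12 weeks. Rux mice received the same irradiation, each time followed at once by an ointment with 1.5% ruxolitinib, an inhibitor of the kinases JAK1 and JAK2. Tissue was taken the day after the last exposure. Each group was 1 library of droplet-based 3′ RNA sequencing, in which each captured transcript carries a unique molecular identifier (UMI), and the number of mice behind a library was not given in the sources used here. There were therefore no replicates, no difference between libraries was tested, and every interval quoted is a 95% interval that covers counting error only. A difference between libraries cannot be told apart from a difference between animals or preparations.

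Metallothioneins are small cysteine-rich proteins that bind zinc and copper, and also cadmium, and that buffer free metal in the cytosol. Mtf1 binds zinc when free zinc is high, enters the nucleus and switches on metallothionein genes and Slc30a1 through short metal response elements in their promoters. Glucocorticoids, inflammatory cytokines that act through STAT3, and oxidative stress are also known to induce metallothionein genes. Slc30a1 pumps zinc out of the cell at the plasma membrane, and Slc39a14 brings zinc, iron and manganese in. In skin, zinc is needed for keratinocyte growth and wound repair.

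On GRCm38, the build of the deposited tables, Mt2 (ENSMUSG00000031762) lay on chromosome 8 at chr8:94172664-94173568 and Mt1 (ENSMUSG00000031765) at chr8:94179082-94180327, both on the plus strand with 5513 bases between them. The longest run of bases shared exactly by their annotated transcripts was 20, and their identity over longer stretches was not measured. Mtf1 (ENSMUSG00000028890) lay at chr4:124802104-124849800 on the plus strand, Slc30a1 (ENSMUSG00000037434) at chr1:191906767-191913247 on the plus strand, and Slc39a14 (ENSMUSG00000022094) at chr14:70303469-70351425 on the minus strand. The promoters of the 3 members that are textbook targets of Mtf1 are shown because metal response elements are the sequence they are known to share. Each run holds 250 bases before and 50 bases from the transcription start that RefSeq gives on GRCm38.p6, at chr8:94178839-94179138 for Mt1, chr8:94172368-94172667 for Mt2 and chr1:191906531-191906830 for Slc30a1, all on the plus strand. Capitals mark the metal response element cores TGCACNC and TGCGCNC on either strand.
Mt1: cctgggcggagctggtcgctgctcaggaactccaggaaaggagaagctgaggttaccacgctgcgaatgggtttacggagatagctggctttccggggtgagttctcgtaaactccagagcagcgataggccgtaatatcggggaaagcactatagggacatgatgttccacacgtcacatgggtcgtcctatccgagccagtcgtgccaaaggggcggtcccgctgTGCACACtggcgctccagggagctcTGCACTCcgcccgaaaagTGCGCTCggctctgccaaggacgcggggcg
Mt2: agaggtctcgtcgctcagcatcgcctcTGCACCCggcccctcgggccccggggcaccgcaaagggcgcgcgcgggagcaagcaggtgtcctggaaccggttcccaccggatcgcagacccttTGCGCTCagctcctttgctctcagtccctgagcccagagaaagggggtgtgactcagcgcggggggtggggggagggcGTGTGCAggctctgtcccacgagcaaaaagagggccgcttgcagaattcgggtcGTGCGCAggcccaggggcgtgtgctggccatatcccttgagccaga
Slc30a1: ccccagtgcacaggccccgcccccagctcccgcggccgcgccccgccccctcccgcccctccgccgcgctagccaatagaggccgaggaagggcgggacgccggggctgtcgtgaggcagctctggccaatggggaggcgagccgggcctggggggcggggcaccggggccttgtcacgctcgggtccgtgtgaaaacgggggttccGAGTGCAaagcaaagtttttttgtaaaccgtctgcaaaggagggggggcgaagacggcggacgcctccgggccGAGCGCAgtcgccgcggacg
The Mt1 promoter held 3 of these cores, beginning 23 bases before and 2 and 20 bases after the start. The Mt2 promoter held 4, beginning 223, 128 and 50 bases before and 4 bases after the start, and the Slc30a1 promoter held 2. No core was found in the window of Mtf1 itself (chr4:124802299-124802598). Of 32851 RefSeq promoters of this length, 25.7% held at least 1 core of either kind, 7.11% at least 2, 1.97% at least 3 and 0.517% at least 4. The antioxidant response element letters TGACNNNGC, present in 12.4% of promoters, occurred once in the Mt2 window and once in the Slc30a1 window. The STAT letters TTCNNNGAA (8.30% of promoters) and the E-box CACGTG (7.15%) were in none of these 4 windows, and no match overlapped another. A match is a description of letters and does not show that a factor binds. Only these windows were searched, so elements outside them, such as near another transcript start, were not counted.

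The 3 libraries held 11287 to 13170 deposited barcodes and 131570327 to 165337289 UMIs. After filters and removal of predicted doublets, 10777 CON, 10231 UV and 9299 Rux cells were kept, with median depths of 7549, 7669 and 9438 UMIs. Kept libraries shared 23 to 35 cell barcodes in pairs. All 3 went against the label of female animals: the Y-linked gene Ddx3y stood at 110 to 121 counts-per-million (CPM) and Xist at 0.0922 to 0.119 CPM. This held equally in each library and moved with no comparison. Cells formed 44 clusters, drawn without the zinc-handling genes, and clusters were named after cell types ("X-like") from fixed markers. The 7 clusters that met no name stayed unnamed. Collagen Col1a1, the defining marker of fibroblasts, stood at 7347, 3095 and 3845 CPM in the FB-like cells of the 3 libraries, and keratin Krt14 at 10076, 9787 and 8027 CPM in basal keratinocyte-like cells. Levels are UMIs summed over the cells of a class and library, in CPM.

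Mt1 and Mt2 were among the abundant transcripts of the skin, and their levels differed widely between cell classes. In fibroblast-like (FB-like) cells, the collagen-producing cells of the dermis, Mt1 stood at 9361 CPM in CON, 5264 CPM in UV and 3776 CPM in Rux. Schwann-like (SCH-like) cells, the glia of skin nerves, held 10156, 7677 and 7781 CPM, and pericyte-like (PCY-like) cells 6897, 4141 and 2424 CPM. These stromal and neural classes were the top 3 of the 11 classes ranked here in every library. At the other end, lymphocyte-like (LYM-like) cells held 386, 295 and 163 CPM. Over those 11 classes, which had at least 50 cells in every library and were ranked by their mean, the order for Mt1 was SCH-like, FB-like, PCY-like, epithelial cells between the named types (EPI-like), basal keratinocyte (KB-like), myeloid (MYE-like), mast (MC-like), vascular endothelial (VEC-like), hair follicle (HF-like), lymphatic endothelial (LEC-like) and LYM-like. The ranges of the 3 libraries overlapped between all neighbours in this order. The order is one of CPM, and classes differed in depth. Median depths in CON were 2547 UMIs in SCH-like, 5957.5 in FB-like and 19799 in EPI-like cells. As UMIs per cell the order differed. EPI-like cells of CON held 169702 Mt1 UMIs in 2514 cells, more per cell than FB-like (190483 in 3166) or SCH-like cells (4050 in 143). For Mt2 the order began with FB-like cells at 4659, 3700 and 2232 CPM and SCH-like cells at 4025, 2884 and 3146 CPM. The next class, EPI-like cells, ranged from 1498 to 2126 CPM, below the SCH-like range, and no other neighbours were apart.

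**Figure D1:**
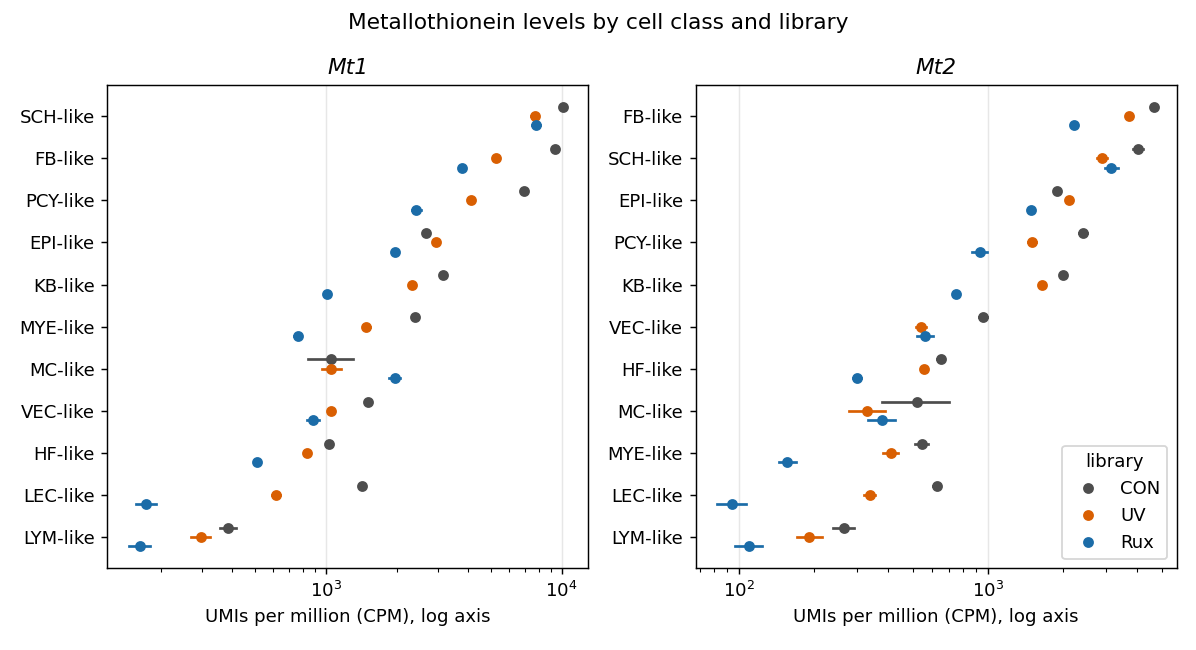
Levels of Mt1 and Mt2 in each cell class, 1 point per library (CON, UV, Rux) with its 95% counting interval, in CPM of summed UMIs on a log axis. For Mt1, FB-like cells run from 3776 to 9361 CPM and LYM-like cells from 163 to 386 CPM, with CON the highest library in both.

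In FB-like cells the CPM of both metallothioneins was lower in UV than in CON, and lower again in Rux. Mt1 was 1.78-fold lower in UV than in CON (log2 ratio -0.83, interval -0.84 to -0.82), 1.39-fold lower in Rux than in UV (-0.48, interval -0.49 to -0.47) and 2.48-fold lower in Rux than in CON (-1.31). Mt2 followed a different course: it was 1.26-fold lower in UV than in CON (-0.33) and 1.66-fold lower in Rux than in UV (-0.73, interval -0.74 to -0.72). The larger step was thus UV against CON for Mt1 and Rux against UV for Mt2, and the UMIs of Mt1 over those of Mt2 went from 2.01 in CON to 1.42 in UV and 1.69 in Rux. Among all genes whose mean reached 10 CPM in the class, 3.50% had a lower ratio than Mt1 in UV over CON and 7.30% in Rux over UV. For Mt2 the shares were 21.9% and 3.28%. Neither gene was past 2-fold lower in either step. At that threshold 2.1% of genes tested were lower and 2.56% higher in UV over CON, 1.49% lower and 1.03% higher in Rux over UV, and 3.51% lower in Rux over CON, where both genes were past it.

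The second of these steps depended on the unit for Mt1. Rux FB-like cells were the deepest, with a median of 9084 UMIs against 6902 in UV and 5957.5 in CON. Counted as UMIs per cell with no scaling, Mt1 stood at 60.2 in CON, 37.3 in UV and 38.1 in Rux, so that Rux over UV came to 0.031 on the log2 scale, of the other sign. Mt2 stood at 29.9, 26.2 and 22.5 UMIs per cell and kept its direction. The lower Mt1 CPM of Rux thus went with a like number of Mt1 UMIs per cell and more UMIs of other genes, and the part of depth in this was not tested.

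To show the spread between single cells, each FB-like cell was thinned at random to 2000 UMIs. This gives the share of Mt1 in a cell, a share as CPM is but with each cell counted equally, and does not bear on UMIs per cell. It left out 144 CON, 257 UV and 130 Rux cells of lower depth. The median thinned cell held 15 Mt1 UMIs in CON, 8 in UV and 4 in Rux, and the means were 18.7, 10.4 and 7.95. The spread within a library was wider than the distance between medians, from 2 to 41 UMIs between the 10th and 90th percentiles in CON, 1 to 23 in UV and 0 to 21 in Rux. Mt1 was seen in 98.0% of CON, 93.6% of UV and 88.2% of Rux cells (exact binomial intervals of 97.4 to 98.5%, 92.8 to 94.3% and 87.1 to 89.2%), and in 99.0%, 98.2% and 97.7% before thinning. LYM-like cells, the class with the lowest level, gave 53.1%, 43.5% and 25.4% at the same 2000 UMIs from median depths of 5424, 5417 and 5607. Mt2 was seen in 92.7%, 88.7% and 77.6% of thinned FB-like cells. Cells high in Mt1 were high in Mt2: across the thinned FB-like cells of a library, Pearson's r of log2(UMIs + 1) was 0.74 in CON (n = 3022 cells), 0.73 in UV (4138) and 0.74 in Rux (3673).

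**Figure D2:**
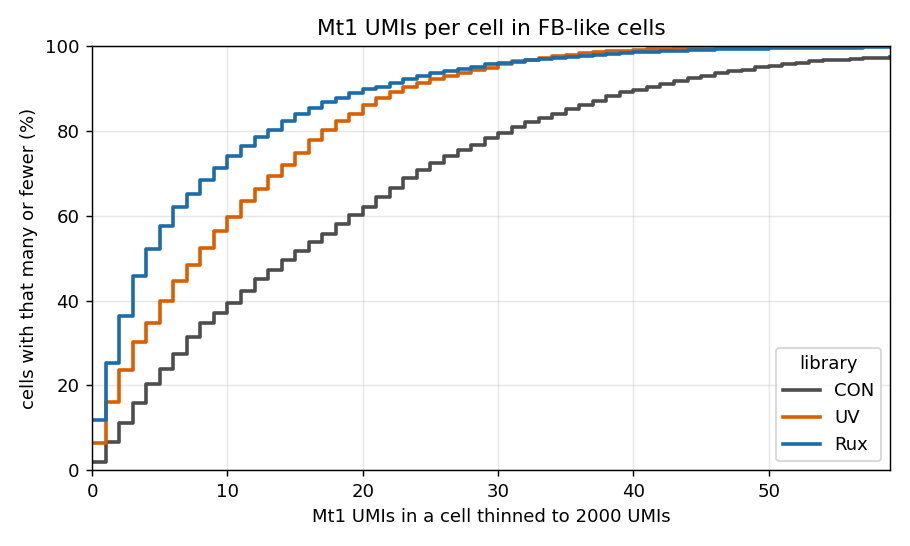
Cumulative share of FB-like cells (percent, y axis) with at most the given number of Mt1 UMIs after thinning to 2000 UMIs (x axis), 1 line per library. The CON curve lies farthest to the right, with a median of 15 UMIs against 8 in UV and 4 in Rux, and the UV and Rux curves meet near the top, with 90th percentiles of 23 and 21 UMIs.

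Fibroblast-like cells were not uniform in metallothionein RNA. Among 12 subclusters of FB-like cells, drawn without the zinc-handling genes, and at least 50 cells, the CON level of Mt1 ran from 2293 CPM in subcluster 11 (led by Tuft1 and Sema3e) to 15196 CPM in subcluster 4 (led by Gdf10, Frmd5 and Apoe). Subcluster 0, led by Thbs4 and Thbs1, both matricellular thrombospondins, held 14883, 8030 and 6128 CPM. Subcluster 6, led by the growth factor binder Igfbp2 and the BMP antagonist Grem1, held 5852, 3011 and 1175 CPM. Both subclusters thus had their highest level in CON and their lowest in Rux, from very different starting levels. Of the 9 subclusters with at least 50 cells in both libraries, Mt1 was lower in UV than in CON in 9, by log2 ratios from -1.40 to -0.20, and lower in Rux than in UV in 8. The exception was subcluster 3 (led by Pde4c and Pecam1), at 1609 CPM in UV and 1840 CPM in Rux. Mt2 was lower in UV in 8 of 9, the exception being subcluster 1 (led by Dtna and Limch1) at 4375 and 4676 CPM, and lower in Rux than in UV in 9 of 9.

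Subclusters also differed in number between libraries. Subcluster 2, led by the cytokine-signalling brake Socs3 and the early-response genes Zfp36 and Egr1, made up 37.3% of FB-like cells in CON, 8.28% in UV and 0.316% in Rux, and held 10994 and 5534 CPM of Mt1 in the first 2. Without it, Mt1 in UV over CON came to -0.66 in the remaining FB-like cells, and Mt2 to -0.26. Weighting every subcluster by its CON share gave -0.91 and -0.61. Subcluster 8, led by the acute-phase genes Saa3, Hp and Lcn2, counted 12 cells in UV and 386 in Rux, where Mt1 stood at 4611 CPM and Mt2 at 2606 CPM. Subcluster 9, led by haemoglobin genes and Mmp11, was almost wholly of Rux, with 268 cells and 1607 CPM of Mt1. These 2 subclusters, rare outside Rux, thus stood above and below the Rux level of all FB-like cells.

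**Figure D3:**
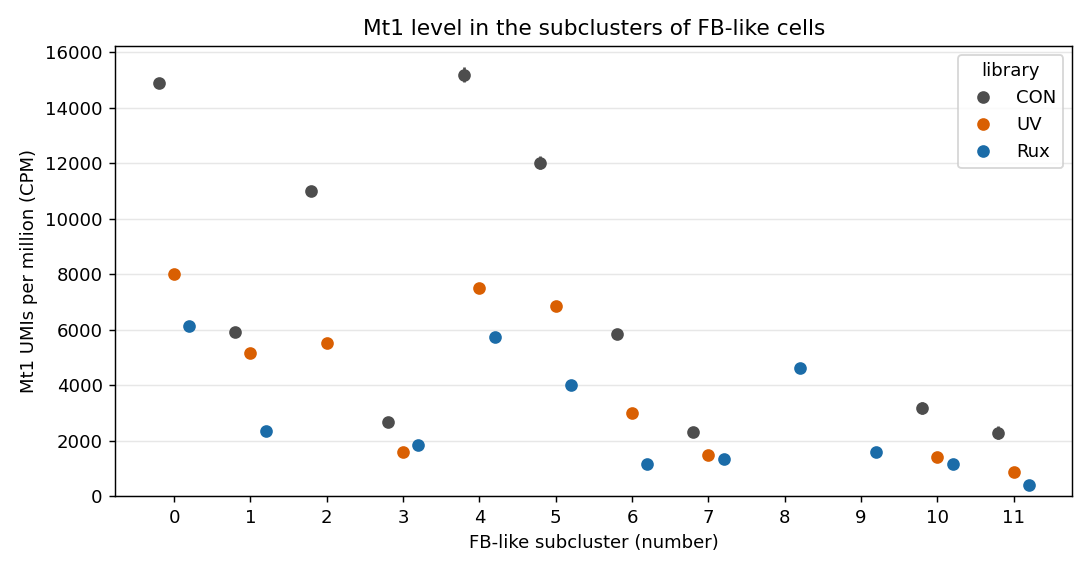
Mt1 level (CPM, y axis from 0) in each FB-like subcluster (x axis), 1 point per library with at least 20 cells there, with 95% counting intervals. The CON point lies above the UV point wherever both are drawn, from 15196 against 7500 CPM in subcluster 4 to 2293 against 868 CPM in subcluster 11.

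Values of other gene lists moved beside the metallothioneins in FB-like cells, and their part in the result was not tested. Of 18 immediate-early and dissociation genes, which respond within minutes to stress and to tissue digestion, all 18 were lower in UV than in CON and 9 were past 2-fold lower, with a median log2 ratio of -1.05 against -0.09 over all 8274 genes. Junb stood at 4109 CPM in CON, 1514 CPM in UV and 1478 CPM in Rux, Egr1 at 3677, 1219 and 1210 CPM, and Fos at 3974, 1778 and 1804 CPM. In Rux over UV the list was even, with 10 genes higher, 8 lower and a median of 0.02, while Mt1 and Mt2 were both lower. The early-response gene Fosb was nearly level, at 1909, 1867 and 2135 CPM. Of 8 glucocorticoid targets, 7 were lower in UV than in CON (median -0.39) and 7 were higher in Rux than in UV (median 0.28). Cebpd stood at 1652, 706 and 417 CPM, Errfi1 at 1731, 1746 and 1878 CPM, Klf9 at 835, 638 and 717 CPM, and Sgk1 at 258, 257 and 548 CPM.

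NRF2 targets, the enzymes of the antioxidant response, were at their highest in UV, unlike the metallothioneins. All 6 tested were higher in UV than in CON, 3 of them past 2-fold, with a median log2 ratio of 1.06, and all 6 were lower in Rux than in UV, 3 past 2-fold, with a median of -1.09. Hmox1, which breaks down haem, stood at 55.2 CPM in CON, 502 CPM in UV and 128 CPM in Rux, and Txnrd1, thioredoxin reductase, at 434, 737 and 376 CPM. Gclc, which starts glutathione synthesis, stood at 131, 208 and 131 CPM, and Srxn1 at 79.9, 205 and 133 CPM. The 7 STAT3 targets were mixed: 3 were higher and 4 lower in UV than in CON (median -0.47), and 2 were higher and 5 lower in Rux than in UV (median -0.23). Socs3 stood at 975, 445 and 139 CPM, the same order of libraries as Mt1, whereas the acute-phase gene Saa3 stood at 62.1, 100.1 and 1023 CPM. Cebpb stood at 1622, 1038 and 939.8 CPM and Il6 at 1192, 1253 and 632 CPM.

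The epithelium had lower metallothionein CPM than FB-like cells, and its CON and UV levels were closer. Over all epithelial cells, Mt1 stood at 2527 CPM in CON, 2383 CPM in UV and 1402 CPM in Rux, and Mt2 at 1741, 1713 and 1037 CPM. CON and UV were thus close (log2 ratios -0.08 and -0.02), and Rux was the low library (-0.77 and -0.72 over UV). Of genes tested in these cells, 1.3% were past 2-fold higher and 1.16% lower in UV over CON, and 0.313% were past 2-fold lower in Rux over UV; neither metallothionein was among them. The classes differed: in EPI-like cells Mt1 stood at 2656, 2932 and 1959 CPM, in KB-like cells at 3128, 2322 and 1009 CPM, and in HF-like cells at 1036, 833 and 511 CPM. In CPM, UV was the highest library only in the first. As UMIs per cell without scaling it was the highest in KB-like cells too, with 44.8 Mt1 UMIs in CON, 61.7 in UV and 23.8 in Rux. UV over CON then turned to 0.46 for Mt1 and 0.61 for Mt2 there, and to 0.093 and 0.15 over all epithelial cells. The median depth of KB-like cells was 11605.5 UMIs in CON, 20713 in UV and 18555.5 in Rux, and its part was not tested. In KB-like cells both metallothioneins were past 2-fold lower in Rux than in UV, as were 2.31% of genes tested. The clusters of KB-like cells differed in their share of each library, and their part was not tested. In HF-like cells both were past 2-fold lower in Rux over CON, as were 4.7% of genes. Markers of the HF-like class differed between libraries. Krt79 stood at 337 CPM in CON, 15.8 in UV and 13.3 in Rux. Krt75 stood at 137, 633 and 1124 CPM, and Krt28 was nearer level at 643, 699 and 774 CPM. The part of the mix of HF-like cells in these ratios was not tested. Within EPI-like cells, cluster 9 (led by Pi15, Shisa2 and the hair follicle stem cell receptor Lgr5) held 1410 CPM of Mt1 in CON, 3742 CPM in UV and 1871 CPM in Rux, the highest UV over CON ratio of 30 clusters. Cluster 10, led by the barrier protein Cst6 and the defensin Defb6, held 1900, 2788 and 632 CPM and had the lowest Rux over UV ratio of the 30. Other EPI-like clusters had CON highest and Rux close to UV. Cluster 5, led by Hist1h1b and Itga2, held 3405, 3078 and 2893 CPM, and cluster 7, led by Slc16a7, held 3128, 2384 and 2256 CPM. The order of libraries in EPI-like cells as a whole was thus not that of each cluster.

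Lymphatic vessels gave the widest range between libraries, taken as a ratio, among the 11 ranked classes. In LEC-like cells, which line lymphatic vessels, Mt1 stood at 1423 CPM in CON, 614.5 CPM in UV and 173 CPM in Rux, and Mt2 at 625, 337 and 94.3 CPM. The 3 libraries were apart for both genes: Mt1 was 2.32-fold lower in UV than in CON (log2 ratio -1.21, interval -1.27 to -1.15) and 3.54-fold lower in Rux than in UV (-1.83, interval -1.98 to -1.68), and Mt2 1.85-fold and 3.57-fold lower. Of genes tested in LEC-like cells, 1.11% were past 2-fold lower in UV over CON, which held Mt1 but not Mt2, 1.38% in Rux over UV and 3.57% in Rux over CON, which both held Mt1 and Mt2. The cells were few, 433 in CON, 302 in UV and 144 in Rux. Free RNA from lysed cells enters every droplet, and the collagen gene Col1a1, which endothelial cells should lack, gave its size: at the Col1a1 level seen in LEC-like cells, RNA of FB-like cells would bring 8.36% of the Mt1 in CON, 18.7% in UV and 42.8% in Rux. With that amount taken off, 1304, 500 and 99.0 CPM of Mt1 were left. VEC-like cells, of blood vessels, held 1509, 1053 and 884 CPM of Mt1 and 957, 541 and 561 CPM of Mt2, with CON again the highest. In PCY-like cells, which wrap small vessels, Mt1 was lower in UV than in CON (-0.74) and in Rux than in UV (-0.77), and both metallothioneins were past 2-fold lower in Rux over CON, as were 6.83% of genes. Their marker Rgs5 stood at 1507, 3069 and 4005 CPM in CON, UV and Rux, and Acta2 at 5160, 4777 and 4275 CPM. The part of the mix of PCY-like cells in these ratios was not tested.

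Among immune cells the myeloid class had the same order of libraries as FB-like cells. MYE-like cells held 2383 CPM of Mt1 in CON, 1486 CPM in UV and 760.04 CPM in Rux, and 544, 408 and 157 CPM of Mt2. Without doublet removal Mt2 in UV over CON turned to 0.078, so its order of CON and UV rests on that step. Mt2 was past 2-fold lower in Rux over UV, as were 3.96% of genes tested, and both genes in Rux over CON, as were 8.38%. In these cells the ratio of Mt1 to Mt2 UMIs was 4.38, 3.64 and 4.84, above that of FB-like cells in every library. LYM-like cells, at 386, 295 and 163 CPM of Mt1, were past 2-fold lower in Rux over CON for both genes, as were 7.06% of genes. RNA of FB-like cells at their Col1a1 level would bring 46.8%, 58.2% and 71.8% of that Mt1, which leaves 205, 124 and 46.0 CPM above it. Markers of the LYM-like class differed between libraries. The T cell receptor gene Trdc stood at 1001, 119 and 149 CPM and Cd3g at 1381, 424 and 409 CPM in CON, UV and Rux. Trbc2 was level at 513, 505 and 514 CPM. The part of the mix of LYM-like cells in the Mt1 and Mt2 ratios was not tested. Mast cells went the other way for Mt1. MC-like cells held 1055, 1057 and 1960 CPM of Mt1, from 87, 450 and 1241 UMIs in 62, 170 and 211 cells, and Rux over UV came to 0.89 (interval 0.73 to 1.05), while Mt2 stood at 522, 329 and 376 CPM. They were shallow, with median depths of 944 to 1655 UMIs.

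Counted over classes with at least 50 cells in both libraries, Mt1 was lower in UV than in CON in 10 of 12 classes, lower in Rux than in UV in 9 of 11, and lower in Rux than in CON in 11 of 12. Mt2 was lower in 10 of 12, 8 of 11 and 12 of 12. The 2 classes with more Mt1 in UV than in CON were EPI-like cells and melanocyte-like (MEL-like) cells, the latter at 1528 and 1767 CPM. The 2 classes with more Mt1 in Rux than in UV were MC-like and SCH-like cells. SCH-like cells, the highest class ranked, were nearly level between UV and Rux for Mt1 (0.02, below 0 with the strict cell filter or without doublet removal) and had 2884 and 3146 CPM of Mt2. Over 30 clusters with at least 50 cells in each library, named or not, Mt1 was lower in 24 in UV over CON and in 28 in Rux over UV, and Mt2 in 23 and 27. Classes of 1 library share their preparation, so these counts describe 3 libraries and are not repeats.

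**Figure D4:**
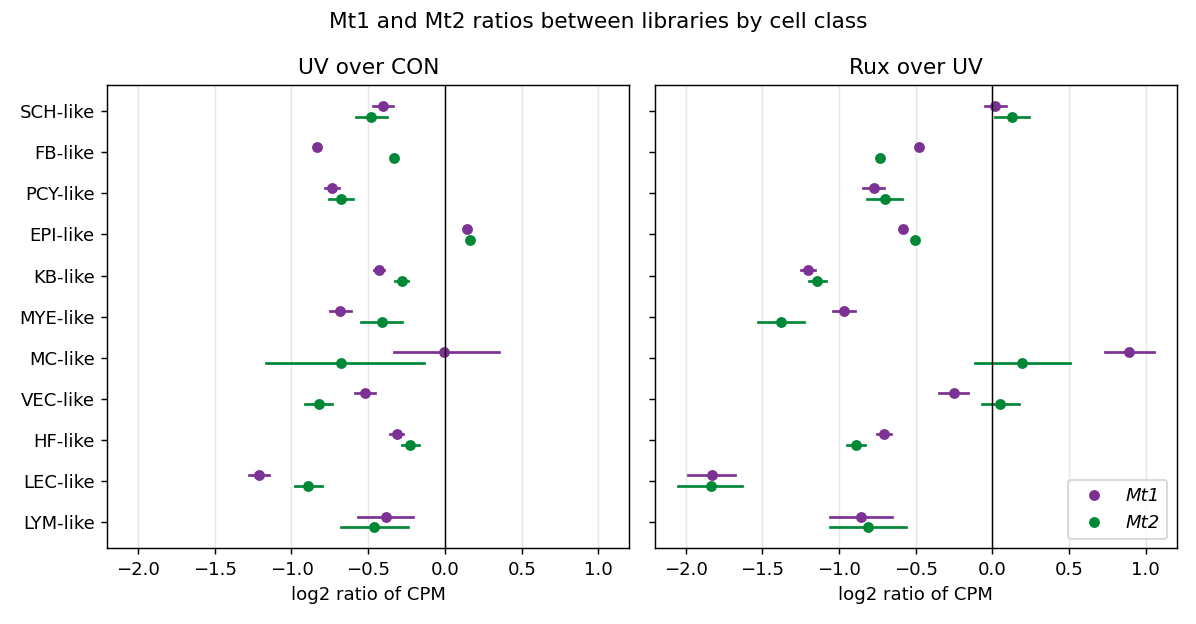
Log2 ratios of Mt1 and Mt2 between libraries (UV over CON, Rux over UV) for each cell class, with 95% counting intervals and a line at 0. LEC-like cells lie farthest to the left, with Mt1 at -1.21 and -1.83, and MC-like cells lie farthest to the right in Rux over UV, with Mt1 at 0.89.

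Mtf1, the zinc sensor that switches on the metallothionein genes, was low, and nearly level in FB-like cells and over all epithelial cells. FB-like cells held 12.5 CPM in CON, 13.4 CPM in UV and 11.6 CPM in Rux, and all epithelial cells 26.6, 26.6 and 27.6 CPM. The 3 libraries thus lay within a narrow range in both while the metallothioneins did not. Class means ran from 29.3 CPM in HF-like to 12.5 CPM in FB-like cells, the class with the second highest Mt1 and the lowest Mtf1, and the ranges of all neighbours in the order overlapped. In UV over CON it was higher in 6 of 12 classes and lower in 6, and in Rux over UV higher in 6 of 11. Its class log2 ratios ran from -1.88 to 0.73 in UV over CON and from -0.61 to 1.66 in Rux over UV. In the latter, intervals lay below 0 in 3 classes and above 0 in 1. Without scaling, its Rux over UV ratio in FB-like cells was 0.30.

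Slc30a1, the zinc exporter, was highest in HF-like, EPI-like and VEC-like cells among the 11 ranked classes. HF-like cells held 235 CPM in CON, 159 CPM in UV and 174 CPM in Rux, above the next class without overlap. This class does not hold every cell with follicle markers: the Lgr5-led cluster 9, within EPI-like cells, held 60.1, 43.4 and 39.8 CPM. EPI-like cells held 105, 94.6 and 92.1 CPM and VEC-like cells 97.7, 71.1 and 83.6 CPM. In these 3 classes CON was the highest library, though the markers of HF-like cells differed between libraries as given above. Below a second gap came KB-like, SCH-like, MYE-like and PCY-like cells, then LEC-like, FB-like, LYM-like and MC-like cells with means under 10 CPM. FB-like cells held 9.34, 6.90 and 7.37 CPM. In KB-like cells CON was the lowest library, at 20.4, 46.4 and 47.5 CPM, past 2-fold higher in UV over CON, as were 8.51% of genes tested there. The 3 KB-like clusters differ in their share of each library. Cluster 37, led by Fhod3 and Slc1a3, had 18 cells in CON, 56 in UV and 147 in Rux, and held 145 CPM of Slc30a1 in UV and 88.2 CPM in Rux.

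Slc39a14, which imports zinc, iron and manganese, was highest in lymphatic endothelium among the 11 ranked classes. Myogenic progenitor-like cells, too few in UV and Rux to be ranked, were higher still, at 421, 379 and 390 CPM. LEC-like cells held 312 CPM in CON, 285 CPM in UV and 218 CPM in Rux, apart from FB-like cells, the next class, at 117, 104 and 128 CPM. Its order over libraries in LEC-like cells was that of the metallothioneins, but with smaller steps (log2 ratios of -0.13 and -0.38), and in FB-like cells Rux was the highest library (0.29 over UV). MYE-like cells held 84.3, 72.8 and 113 CPM, also with Rux highest, and VEC-like cells 101, 61.3 and 62.0 CPM, with CON highest. EPI-like cells held 26.2 CPM on average, MC-like cells 15.8 and HF-like cells 11.7. HF-like cells, which led the 11 ranked classes for Slc30a1, thus came last of them for Slc39a14. The Lgr5-led cluster 9 of EPI-like cells held 37.2, 36.5 and 34.2 CPM of Slc39a14, so neither rank extends to it. In thinned FB-like cells, 17.7% of CON, 16.0% of UV and 21.0% of Rux cells showed at least 1 UMI (40.9%, 40.3% and 54.6% before thinning), against 1.02%, 3.14% and 2.16% of HF-like cells, whose median depths were 20836, 21093 and 25491 UMIs.

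Of the 12 classes counted, KB-like cells had the largest UV over CON ratio of Slc39a14, and their clusters differed in its level. KB-like cells held 15.2 CPM in CON, 47.2 CPM in UV and 78.6 CPM in Rux, a log2 ratio of 1.63 for UV over CON, among the 8.51% past 2-fold higher. Cluster 37 held 154 CPM in UV and 145 CPM in Rux, with too few CON cells for a level there. Cluster 17, led by Fcgbp, Sox6 and Col17a1 and made up of 477 CON, 24 UV and 75 Rux cells, held 10.6, 10.3 and 13.7 CPM, and cluster 39, led by Cstdc5 and Stfa3, held 11.2, 26.8 and 19.9 CPM. Within clusters 17 and 39 the libraries were closer than over the class, though UV stood above CON in cluster 39. The part of the clusters in the class ratio was not tested. Mt1 differed within these clusters too, at 3338, 1962 and 1450 CPM in cluster 17 and 2609, 2681 and 1297 CPM in cluster 39. Both Rux levels lay above the 1009 CPM of the whole KB-like class in Rux, and the Mt1 level of cluster 37 is not given here.

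**Figure D5:**
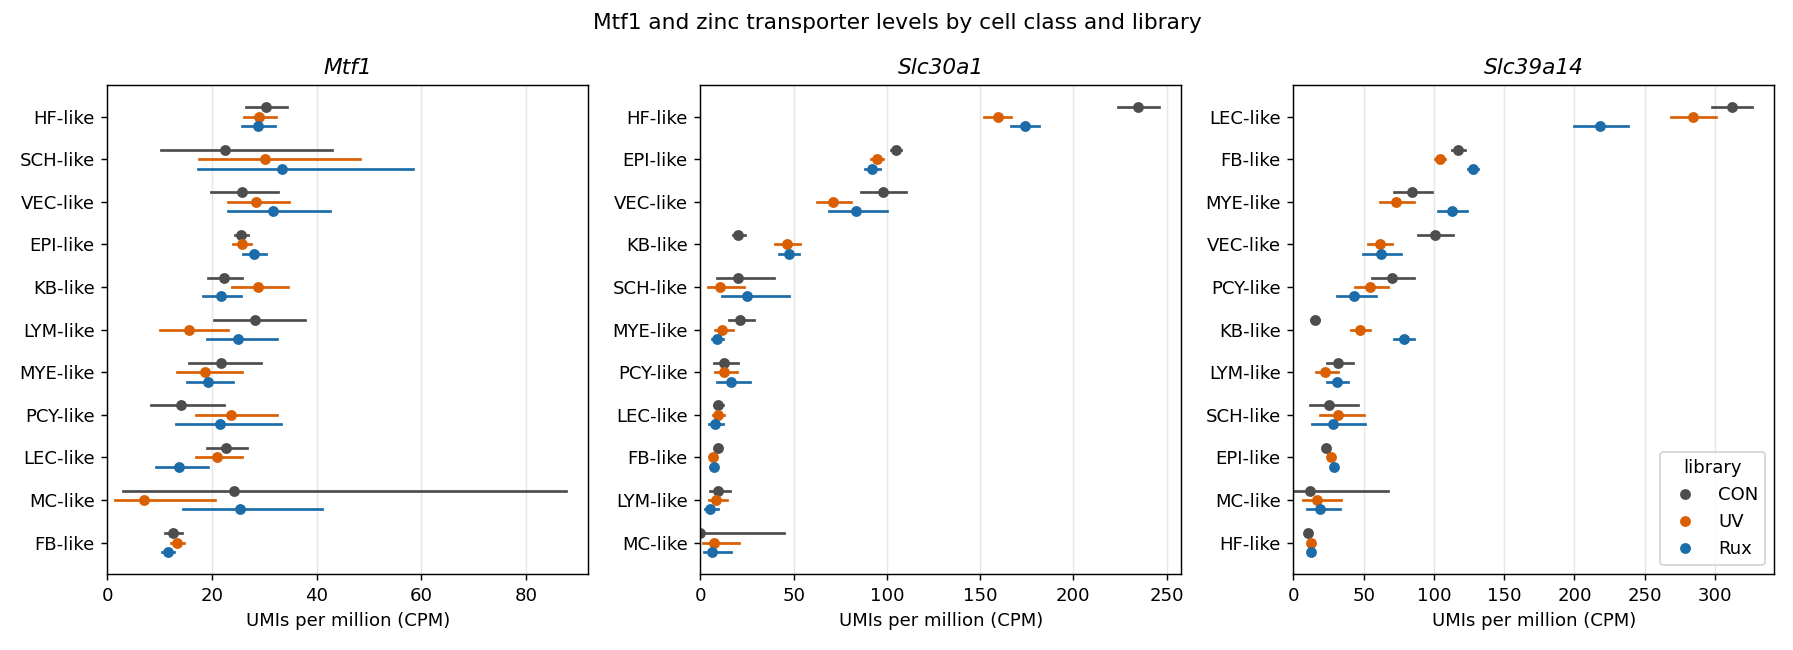
Levels of Mtf1, Slc30a1 and Slc39a14 in each of the 11 ranked cell classes, 1 point per library with its 95% counting interval, in CPM of summed UMIs on axes from 0. Among these classes Slc30a1 peaks in HF-like cells (159 to 235 CPM) and Slc39a14 in LEC-like cells (218 to 312 CPM), while class means of Mtf1 lie between 12.5 and 29.3 CPM.

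The wider list held 29 zinc-handling genes, adding the other metallothioneins, the SLC30 exporters and the SLC39 importers to the members. In FB-like cells 16 reached 10 CPM. In UV over CON 4 were higher and 12 lower with none past 2-fold, and the median log2 ratio was -0.25 against -0.09 over all genes. In Rux over UV the counts were again 4 and 12 with none past 2-fold and a median of -0.13, against 0.00 over 8056 genes. Of those 8056 genes, 49.7% were lower. Slc39a1, a plasma membrane importer, stood at 68.8 CPM in CON, 51.6 CPM in UV and 57.9 CPM in Rux. Slc39a7, which releases zinc from the endoplasmic reticulum, stood at 63.8, 46.5 and 54.4 CPM, and Slc39a6 at 49.4, 56.0 and 50.9 CPM. CON was the highest library for the first 2 of these but not for Slc39a6.

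In epithelial cells 19 genes of the list were tested, with medians of -0.03 in UV over CON and 0.01 in Rux over UV. The importer Slc39a6 was the only one past 2-fold, at 87.4 CPM in CON, 182 CPM in UV and 187 CPM in Rux (log2 ratio 1.06 for UV over CON). Within EPI-like, KB-like or HF-like cells taken alone it was not past 2-fold in UV over CON. The mix of classes differed between libraries, with 294 HF-like cells of 3634 epithelial cells in CON and 451 of 1916 in UV. The part of this mix in the ratio was not tested. Slc39a10, a related importer, was level over all epithelial cells at 228, 219 and 231 CPM but stood at 84.3, 292 and 416 CPM in KB-like cells. In KB-like cells, whose clusters differ in their share of each library, Slc39a6 stood at 46.0, 85.5 and 130 CPM. Mt4, the metallothionein of differentiating stratified epithelium, stood at 162, 101 and 176 CPM over all epithelial cells. In EPI-like cells it was past 2-fold lower in UV than in CON, at 106, 44.8 and 43.8 CPM, as were 0.753% of genes tested. The importer Slc39a8, named after its values were seen, was past it there as well, at 69.4, 23.9 and 19.5 CPM. In HF-like cells Mt4 stood at 223, 277 and 446 CPM, with Rux highest.

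Genes most like each member were ranked by Pearson's r of log2(CPM + 1) over 41 points, each a class in a library with at least 50 cells, among 7193 genes. The points share libraries, so r is a description. Mt1 and Mt2 were each other's closest gene, at r = 0.94. After Mt2, Mt1 was most like Gfra1 (0.76), Csmd1 (0.74), Sema3b (0.72) and Tenm3 (0.72), and Mt2 was most like Gas1 (0.80), Sfrp1 (0.78), Vgll3 (0.74) and Sema5a (0.74). Mtf1 was most like Ptma (0.78), Rbm8a, Psmc1, Smc1a and Pes1. Slc30a1 was most like Dcbld1 (0.84), Shroom3, Adgrg1, the importer Slc39a10 (0.83) and Eps8l2, and Slc39a14 was most like Glis3 (0.80), Zbtb46, Flot2 and Sema3a. Between members outside the metallothionein pair r was low: 0.16 for Mt1 with Mtf1, 0.05 with Slc30a1 and 0.16 with Slc39a14. It was 0.46 for Mtf1 with Slc30a1.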

How the data were processed

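Dorsal skin cells of 3 libraries (CON, UV and Rux, 1 per group) were measured by 10x Genomics 3′ v3.1 sequencing. The authors deposited raw UMI counts per gene and cell on mm10 (GRCm38). The submitters' processing notes name Cell Ranger 6.1.2 and the matrix headers name version 7.0.0. From these counts, cells were kept from 200 detected genes upwards if mitochondrial UMIs made up no more than 10%, and doublets predicted by Scrublet (scanpy 1.11.5), at a rate of 0.8% per 1000 barcodes, were removed. Total UMIs per library were 165337289, 133972374 and 131570327. Cells were clustered in Seurat 5.3.0 (2000 variable genes less the zinc-handling genes, 30 principal components, resolution 1.5) and FB-like cells again (20 components, resolution 0.5). Clusters were named from fixed marker lists, so names were rebuilt here and can differ from those of the study. UMIs were summed per class and library and scaled to CPM with exact Poisson intervals (scipy 1.17.1, Python 3.11.15). Log2 ratios had 0.5 UMI added to each sum and an exact conditional binomial interval. With 1 library per group no test was made, and "past 2-fold" was read only for genes whose mean reached 10 CPM. The code was tested on simulated counts.

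The members and lists were chosen with earlier results of these data known. Named were the 5 members, zinc-handling genes past 2-fold with a mean of at least 50 CPM in a class or at that mean in FB-like or epithelial cells, the 5 genes most like each member (1 of which is not reported here), and up to 4 genes of each side list with the highest mean in FB-like cells. Clusters, subclusters and their leading genes were chosen after their values were seen. Alternatives covered cell filters, doublets, clustering resolution, scaling, weighting of cells and subclusters, and genes left out. Promoters came from RefSeq (GRCm38.p6) and gene positions from GENCODE vM21.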

Additional observations from a re-analysis of the deposited data

Results flagged for a closer look

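In mast cells (MC-like), Mt1 differed between Rux and UV in the opposite direction to most classes: the log2 ratio of Rux over UV was 0.89, from 1057 CPM in UV and 1960 CPM in Rux, while 9 of 11 classes had a ratio below 0. The difference between classes was not tested. Col1a1, a gene of fibroblasts, stood at 134 CPM in UV and 144 CPM in Rux in these cells, and with the matching share of FB-like RNA taken off, 829 and 1819 CPM of Mt1 were left.

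In basal keratinocytes (KB-like), Slc39a14 had a UV over CON log2 ratio of 1.63, from 15.2 CPM in CON and 47.2 CPM in UV, while 7 of 12 classes had a ratio below 0. This difference between classes was not tested either. Cluster 37 made up 18 of 564 KB-like cells in CON and 56 of 153 in UV, and its part in the ratio was not tested.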

How the results depend on the processing

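The 4 ratios of Mt1 and Mt2 in FB-like cells kept their sign in every alternative but 1. The cause of each shift was not tested. Mt1 in UV over CON (-0.83 as reported) came to -0.92 with the strict cell filter (500 genes, 5% mitochondrial), -0.79 with the loose one (20%), -0.86 without doublet removal, -0.79 at resolution 0.8 and -0.74 with median-of-ratios scaling. Mt1 in Rux over UV (-0.48) came to -0.46, -0.55, -0.46 and -0.69 under the first 4 of these and to -0.39 with equal weight per cell. Mt2 in UV over CON (-0.33) came to -0.38 with the strict filter, -0.30 with the loose one, -0.30 at resolution 0.8, -0.25 with median-of-ratios scaling and -0.39 with equal weight per cell. Mt2 in Rux over UV (-0.73) came to -0.72 with the strict filter, -0.80 with the loose one, -0.72 without doublet removal, -0.93 at resolution 0.8 and -0.61 with equal weight per cell. With subclusters weighted as in CON, the ratios in this order were -0.91, -0.59, -0.61 and -0.79. Those of Rux over UV leave out subcluster 2, which made up 37.3% of CON FB-like cells but had 12 cells in Rux. They therefore do not describe the full CON mix.

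Other alternatives were chosen after seeing the data. As UMIs per cell without scaling, the 4 ratios were -0.69, 0.031 (reversed), -0.19 and -0.22. With the 2 collagen-rich unnamed clusters added they were -0.80, -0.70, -0.30 and -0.94. With the low-UMI unnamed cluster added, those of UV over CON were -0.88 for Mt1 and -0.35 for Mt2. Without the subcluster with most immediate-early RNA, Mt1 in UV over CON was -0.66 and Mt2 was -0.26 and -0.76.

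Among all other results, 430 stayed within their counting interval, 189 moved and 8 turned to the other sign from a value whose interval excluded 0. With every change of sign counted, also of values whose interval held 0, the sign was kept by 59 of 66 ratios as UMIs per cell, 61 of 66 without doublet removal, 62 of 66 with the strict filter, 64 of 66 with the loose filter or median-of-ratios scaling, 65 of 66 with equal weight per cell, 59 of 60 at resolution 0.8 and 5 of 6 with the collagen-rich clusters. UMIs per cell turned UV over CON in all epithelial cells to 0.093 for Mt1 and 0.15 for Mt2, in KB-like cells to 0.46 and 0.61, and Mtf1 in Rux over UV in FB-like cells to 0.30. Median-of-ratios scaling turned epithelial Mt2 in UV over CON to 0.017. Without doublet removal, Mt2 came to 0.078 in MYE-like cells (UV over CON) and to -0.12 in SCH-like cells (Rux over UV).

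No paired analysis was possible because each group had 1 library, and for the same reason no library was left out. With no replicates, animal, preparation and group cannot be told apart. Counting intervals are narrow for Mt1 and Mt2 and wide for Mtf1 and Slc30a1, whose levels in several classes rest on few UMIs. Free RNA sets a floor under the low levels of lymphocytes, neutrophils and lymphatic endothelium, and the cell classes were rebuilt here.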

Other observations

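Some cells outside the named classes also carried metallothionein RNA, at levels from below to above those of FB-like cells. Unnamed cluster 3, led by the matrix genes Postn and Cthrc1 and the collagen-degrading enzyme Ctsk, held 4919 CPM of Mt1 in CON, 4029 CPM in UV and 1614 CPM in Rux, and counted 140, 560 and 860 cells. Unnamed cluster 15, led by Lrrc15 and the collagen gene Col11a1, held far less, at 479, 516 and 311 CPM. The cells of both clusters were thus most numerous in Rux, and their Mt1 was lowest there. Unnamed cluster 4, led by Gdf10 and Mgp and of low depth, held 14126, 5918 and 4114 CPM, the order of libraries seen in FB-like cells. Unnamed cluster 14, led by the neuronal adhesion and guidance genes Adgrb3, Lingo2 and Dcc, was highest in UV, at 708 CPM of Mt1 in CON, 1335 CPM in UV and 437 CPM in Rux, and had more Slc39a14 than FB-like cells, at 159, 188 and 263 CPM.

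Myogenic progenitor-like (MP-like) cells, by their markers the precursors of muscle, held 11898 CPM of Mt1 and 8022 CPM of Mt2 in CON, from 155 cells, and 421 CPM of Slc39a14, the highest level of that importer among named classes in CON. With 41 cells in UV and 35 in Rux, their Mt1 stood at 5364 and 3494 CPM and their Slc39a14 at 379 and 390 CPM. Neutrophil-like (NEU-like) cells were found mostly in Rux, with 221 cells against 50 in CON and 21 in UV, and held 441 CPM of Mt1 and 180 CPM of Mt2 there. RNA of FB-like cells at their Col1a1 level would bring 51.5% of that Mt1 and 74.5% of that Mt2.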
